A study of Mus musculus with 22 samples.

Results

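The genes described here make sterols and fatty acids. They are a list of 34 genes, 16 of sterol synthesis, 6 of sterol sensing and transport and 12 of fatty acid synthesis, chosen by name and matched by symbol and Ensembl identifier to the count tables, which list 54373 genes, 21793 of them protein-coding. All 34 were found in both tables and all 34 passed the filter on low counts in every comparison. The 22 genes of sterol synthesis, sensing and transport are called the cholesterol branch below.

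RNA was sequenced from epithelial cells (ECs) sorted from digested mouse lungs as live CD45-EpCAM+ cells, that is, without the common leukocyte antigen and with an epithelial adhesion molecule. The study's description of the sort adds CD31, an endothelial antigen, as absent, which the labels do not give. The mice were WT C57BL/6, AhR-/- (without the aryl hydrocarbon receptor, a ligand-activated transcription factor) or CYP1B1-/- (without a cytochrome P450 that AhR induces), both knockouts present in every cell of the body and backcrossed to C57BL/6. ECs came from naive mice (steady state; 4 WT, 3 AhR-/- and 3 CYP1B1-/- libraries) or from mice given house dust mite extract (HDM), an intranasal sensitization with Dermatophagoides farinae and later challenges on consecutive days, with ECs taken days after the last one (4 libraries of each genotype). Per the study's methods, adult mice of both sexes, matched for age and sex, were used. Age and sex of the single libraries are not given in the labels, and Y-linked reads were not balanced between these groups (below). Each state is in a table of its own, so state and sequencing run cannot be told apart. The same holds for state and Y-linked reads in WT and CYP1B1-/-.

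Cells build cholesterol from acetyl-CoA through mevalonate, isoprenoid units, squalene and lanosterol. When membrane sterol is low, SCAP carries the SREBP transcription factors (genes Srebf1 and Srebf2) to the Golgi apparatus for cleavage, and the INSIG proteins hold the complex back when sterol is plentiful. SREBP-2 is best known for the sterol enzymes and SREBP-1c for fatty acid synthesis, in which ATP citrate lyase, acetyl-CoA carboxylase and fatty acid synthase make palmitate, and desaturases and elongases modify it. Type 2 alveolar cells make the lipid of surfactant, and macrophages of the lung handle and export much of it.

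Total counts per library were 10476829 to 17707000 at steady state and 9654825 to 17878442 after HDM. Of these, 7218689 to 14120921 and 1180756 to 16447855 lay in protein-coding genes outside 6 dominant predicted genes, and 5 HDM libraries (WT 2, AhR-/- 3 and 4, CYP1B1-/- 1 and 2) were shallow, with 1180756 to 2856737. Epcam was detected in every library (54.6 to 406 CPM, counts scaled to a common library size). The targeted genes were not lower in the libraries labelled with their knockout: after HDM, mean Ahr levels (± SD, n = 4 each) were 16.3 ± 4.69 CPM under the AhR-/- label and 11.2 ± 2.12 CPM under the WT label, and those of Cyp1b1 were 6.53 ± 3.88 CPM under the CYP1B1-/- label and 1.41 ± 0.699 CPM under the WT label. The counts are summed over whole genes, so a transcript that lacks some exons would still be counted, and genotypes below are those of the labels. Of 25 markers of hematopoietic cells, all were detected in each group. Their summed level in the HDM table was 1774 to 4336 CPM in WT, 253 to 1135 in AhR-/- and 383 to 4479 in CYP1B1-/- libraries. The Y-linked Ddx3y was at 0 in all WT and CYP1B1-/- HDM libraries and at up to 53.8 CPM in AhR-/- HDM libraries, where AhR-/- 3 and 4 carried Y-linked reads, and at 27.9 to 136 CPM in every steady-state library. In such bulk libraries, fewer cells of a type and less RNA per cell cannot be told apart.

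The stretches upstream of the start sites shown here belong to genes that the comparisons turn on, and to Hmgcs1. It was the only gene searched in which the letters of a sterol regulatory element core, given below, were matched. Promoter sequences of RefSeq on GRCm38.p6, from 250 bases before to 50 bases after the start site, were searched for 27 of the 34 genes (not for Sqle, Fdps, Fdft1, Stard4, Scd1, Scd2 or Fads1). The letters were read on both strands, CCAAT (read ATTGG on the other strand; the letters bound by NF-Y), TCACNCCAC (a core of the sterol regulatory element bound by SREBPs) and CACGTG (an E-box), which do not overlap each other in the stretches shown. Capitals mark the matched letters, and all stretches read 5′ to 3′ on the strand of the gene. They lie before the RefSeq start sites, which for Idi1, Cyp51 and Srebf2 are inside the gene bounds of GENCODE (chr13:8885501-8892451, chr5:4081145-4104746 and chr15:82147181-82205379).
Hmgcs1, chr13:119690177-119690259, plus strand: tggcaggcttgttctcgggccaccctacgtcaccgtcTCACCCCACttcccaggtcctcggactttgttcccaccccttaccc
Idi1, chr13:8885555-8885605, plus strand: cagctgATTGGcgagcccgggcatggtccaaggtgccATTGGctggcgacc
Cyp51, chr5:4104698-4104763, minus strand: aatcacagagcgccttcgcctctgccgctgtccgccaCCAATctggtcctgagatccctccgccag
Mvd, chr8:122443423-122443486, minus strand: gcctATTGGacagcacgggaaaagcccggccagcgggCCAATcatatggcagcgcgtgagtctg
Insig2, chr1:121332590-121332655, minus strand: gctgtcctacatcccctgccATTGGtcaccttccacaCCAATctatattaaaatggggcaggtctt
Srebf2, chr15:82147097-82147175, plus strand: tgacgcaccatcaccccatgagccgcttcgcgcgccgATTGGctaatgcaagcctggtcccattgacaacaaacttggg

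CCAAT was found in 22 of the 27 genes (81.5%), among them Idi1, Cyp51, Mvd, Insig2, Srebf2 and Acly, and in 42.6% of the 11127 tested genes with a promoter in the table and 41.1% of all 27025 such genes. TCACNCCAC was found in Hmgcs1 alone among the 27, and in 1.35% of the tested genes. CACGTG was in 6 of the 27 (22.2%), Dhcr7, Hsd17b7, Sc5d, Insig1, Scap and Elovl5, and in 11.0% of the tested genes. These matches describe letters in a window and were not tested.

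Per length, 5 of the 12 fatty acid genes headed the list and 3 others ended it. In WT at steady state, mean levels in CPM per kb of exon were 743 for Scd2, a stearoyl-CoA desaturase, 332 for Elovl5, an elongase of polyunsaturated chains, 95.8 for Scd1, 67.1 for Elovl1 and 28.8 for Acly. The cholesterol branch ran from 26.0 for Sc5d, 19.7 for Hmgcs1 and 19.1 for Insig2 down to 0.672 for Idi1, with the fatty acid genes Me1, Fasn, Fads1 and Fads2 among them, and the lowest levels were those of Acaca (0.553), Elovl6 (0.260) and Acacb (0.143). After HDM, the WT order was headed by Scd1 (103 CPM per kb), Elovl5 (61.2), Scd2 (41.5), Elovl1 (39.3) and Acly (24.1), and Cyp51 (14.2) and Hmgcs1 (13.9) led the cholesterol branch. Each order is scaled within the table of its own state, so its levels cannot be compared with those of the other state. Neighbours in these orders often did not differ beyond their spread: Scd1 ranged from 227 to 840.0 CPM among the WT steady-state libraries and Cyp51 from 25.9 to 96.97 among the WT HDM libraries. Some counts are uncertain, since 39.1% of the 50-base stretches of Acat2 also occur in other genes, 30.4% of those of Acaca, 28.3% of Me1, 26.5% of Fdft1, 26.2% of Fdps and 25.3% of Idi1, and 18.3% of the exon length of Fdft1 lies opposite exons of Ctsb.

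AhR-/- and WT ECs were first compared after HDM, which asks how ECs without AhR differ from WT ECs in mice given the allergen. In AhR-/-, Cyp51, Idi1, Mvd and Sqle of sterol synthesis, Srebf2 and Stard4 of sensing and transport, and Acly and Fads2 of fatty acid synthesis fell, and Insig2 rose. In the quasi-likelihood test of edgeR, with p-values adjusted by the Benjamini-Hochberg method over the 14161 genes tested, 9 of the 34 genes passed the threshold of 0.05 (1 higher and 8 lower), where 22.1% of all genes tested passed, 9.22% higher and 12.9% lower. The count over both directions is therefore near that of genes at large. The median log2 fold change of the 34 genes was -0.61 and that of all genes tested -0.0017, with 25 of the 34 fitted below 0 and 19 at an unadjusted p under 0.05, as were 38.8% of all genes tested. By branch, 4 of 16 sterol synthesis genes fell and 0 rose (median log2 fold change -0.82), 2 of 6 sensing and transport genes fell and 1 rose (-0.96), and 2 of 12 fatty acid genes fell and 0 rose (-0.07).

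Cyp51, the lanosterol demethylase, was counted at 41.8, 25.9, 96.97 and 85.9 CPM in the WT HDM libraries and at 19.5, 24.6, 10.5 and 12.7 in AhR-/-, scaled within the HDM table as are all values of this comparison. Every AhR-/- library lay below every WT library, and the log2 fold change was -1.88 (SE 0.50, adjusted p = 0.0290 in the edgeR test). Idi1, the isomerase that makes dimethylallyl diphosphate, was at 4.02, 4.77, 12.2 and 8.84 CPM in WT and at 2.33, 3.07, 2.55 and 0.530 in AhR-/-, again without overlap (-1.80, SE 0.50, adjusted p = 0.0313). Mvd, which decarboxylates mevalonate diphosphate, was at 13.7, 6.36, 23.9 and 18.1 CPM in WT and at 4.90, 9.65, 3.27 and 3.18 in AhR-/- (-1.52, SE 0.42, adjusted p = 0.0310). The groups overlapped for Mvd, because WT library 2 lay below AhR-/- library 2. Sqle, the squalene epoxidase, was at 23.6, 14.8, 53.7 and 54.5 CPM in WT and at 17.4, 18.5, 6.18 and 8.22 in AhR-/- (-1.51, SE 0.47, adjusted p = 0.0404), and here WT library 2 lay below AhR-/- libraries 1 and 2.

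Of the other 12 sterol synthesis genes, none passed. Dhcr7, the last reductase of the pathway, had a log2 fold change of -1.35 (adjusted p = 0.0605 in the edgeR test), Fdps, the farnesyl diphosphate synthase, -0.96 (0.0791), Mvk, the mevalonate kinase, -0.88 (0.0779), Hmgcs1, the HMG-CoA synthase, -0.88 (0.104), and Lss, the lanosterol synthase, -0.77 (0.0628). Pmvk, the phosphomevalonate kinase, had -0.58 (0.0939), with every AhR-/- library below every WT library. Msmo1, Nsdhl, Hsd17b7 and Sc5d, which act on the sterol ring, had fitted differences of -0.13, -0.14, -0.43 and 0.082. Among the 34 genes, 5 did not overlap between the groups and were lower (Cyp51, Idi1, Pmvk, Srebf2 and Acly), as were 15.3% of all genes tested, and 1 was higher (Insig2), as were 9.63%.

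In sensing and transport, Srebf2, which encodes SREBP-2, was at 41.4, 25.7, 60.4 and 58.3 CPM in WT and at 17.8, 24.5, 10.2 and 12.99 in AhR-/- (-1.49, SE 0.43, adjusted p = 0.0334 in the edgeR test). No AhR-/- library reached the lowest WT library. Stard4, a carrier of cholesterol in the cytosol, was at 8.44, 6.58, 14.3 and 12.3 CPM in WT and at 6.88, 6.39, 3.27 and 3.31 in AhR-/- (-1.02, SE 0.33, adjusted p = 0.0445). Only WT library 2 and AhR-/- library 1 overlapped. Insig2, which retains SCAP in the endoplasmic reticulum, went the other way, at 20.8, 19.1, 15.1 and 8.95 CPM in WT and at 42.2, 23.1, 54.2 and 49.1 in AhR-/- (1.40, SE 0.35, adjusted p = 0.0268). All 4 AhR-/- libraries lay above all 4 WT libraries. Its paralog Insig1 was at 13.2, 8.17, 23.96 and 23.8 CPM in WT and at 6.61, 13.6, 6.18 and 6.63 in AhR-/- (-1.05, adjusted p = 0.0569), Srebf1 had -0.91 (0.106) and Scap 0.085 (0.814).

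In fatty acid synthesis, Acly, the citrate lyase that supplies cytosolic acetyl-CoA to both branches, was at 122, 109, 145 and 131 CPM in WT and at 61.3, 104, 24.7 and 46.1 in AhR-/- (-1.10, SE 0.35, adjusted p = 0.0429 in the edgeR test), without overlap. Fads2, a desaturase of polyunsaturated fatty acids, was at 6.97, 9.31, 16.6 and 15.4 CPM in WT and at 4.85, 8.69, 1.46 and 3.71 in AhR-/- (-1.28, SE 0.40, adjusted p = 0.0412). The groups overlapped, since AhR-/- library 2 lay above WT library 1. Its neighbour Fads1 was at 25.1, 21.3, 36.4 and 40.4 CPM in WT and at 11.2, 22.4, 2.18 and 2.92 in AhR-/- (-1.61, adjusted p = 0.0607). Fasn, the fatty acid synthase, did not pass, at 76.03, 63.3, 57.2 and 54.2 CPM in WT and at 51.8, 84.1, 8.003 and 15.2 in AhR-/- (-0.64, adjusted p = 0.485), nor did Scd1, at 554, 805, 295 and 369 and at 742, 879.8, 80.03 and 183 CPM. In both genes, AhR-/- libraries 3 and 4 lay below all others and AhR-/- library 2 above all WT libraries. Scd2 had a positive fold change that missed the threshold (1.27, adjusted p = 0.0664), at 232, 297, 237 and 141 CPM in WT and at 457, 196, 744 and 788 in AhR-/-. The acetyl-CoA carboxylases were at -0.043 (Acaca) and 0.12 (Acacb) on the log2 scale.

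**Figure D1:**
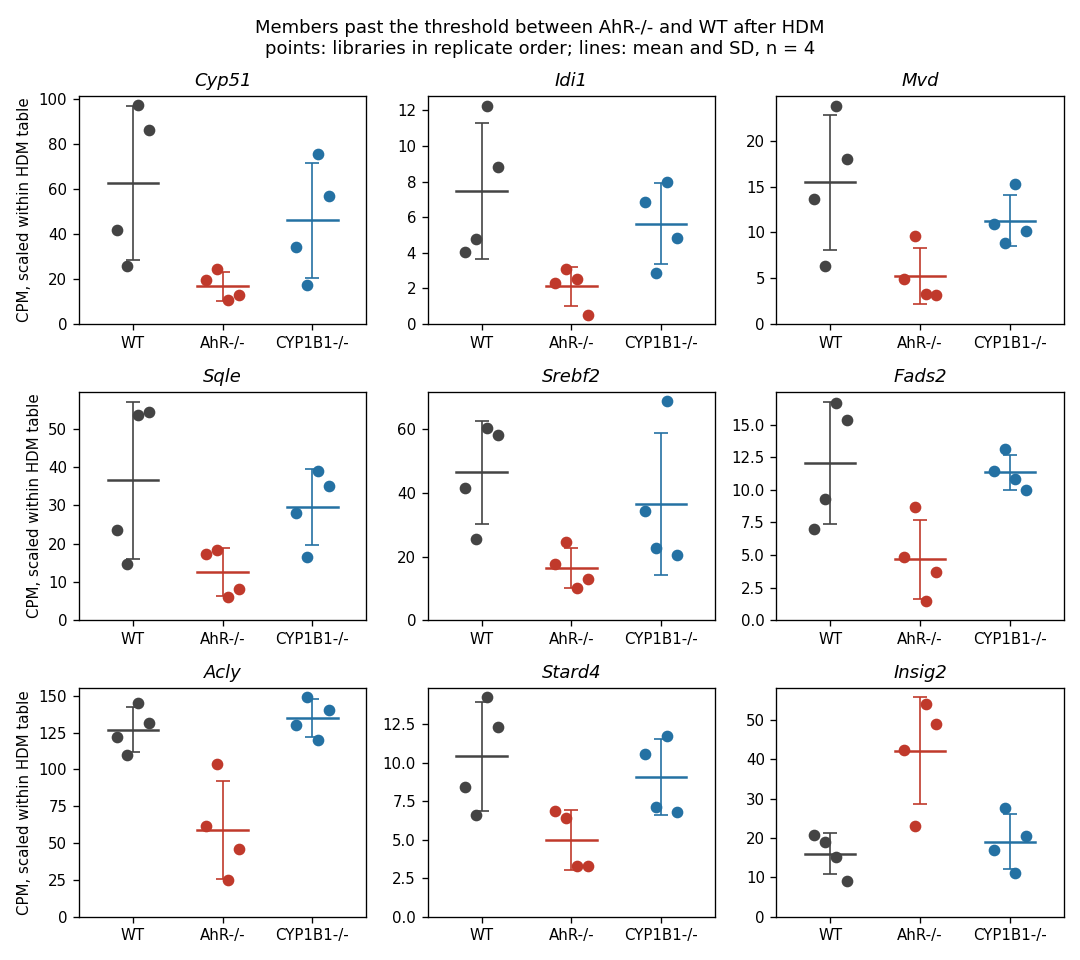
CPM of the 9 genes that passed between AhR-/- and WT after HDM, scaled within the HDM table, in each of the 12 HDM libraries (points) with the mean and SD of each group. Cyp51, Idi1, Srebf2 and Acly separate AhR-/- from WT downward and Insig2 upward, and the CYP1B1-/- libraries overlap those of WT for all 9 genes.

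Markers of other cells moved with this comparison. Of 24 hematopoietic markers tested, 8 were lower in AhR-/- than in WT HDM libraries and 0 higher, with 13 at an unadjusted p under 0.05 in the edgeR test (median log2 fold change -1.83). Ptprc, which encodes the CD45 used to remove leukocytes, was at 187 to 427 CPM in WT and at 11.1 to 111 in AhR-/- HDM libraries. Type 1 alveolar markers had 1 of 10 higher, with 8 at an unadjusted p under 0.05 (median 2.03), club cell markers 1 of 7 higher, with 4 (median 2.04), and type 2 alveolar markers 0 of 11 in either direction, with 0 at an unadjusted p under 0.05 in the edgeR test (median 0.40). Ciliated cell markers had 2 of 10 higher, with 7 at an unadjusted p under 0.05 (median 1.45), and epithelial markers 1 of 6, with 2 (median 0.76). Of 7 mesenchymal and 7 endothelial markers, 0 passed in the edgeR test, with 2 of each at an unadjusted p under 0.05 (medians 1.21 and 0.97). Within the HDM table, the mean log2 level of the cholesterol branch was highest in WT library 3 (4.66) and lowest in AhR-/- libraries 3 and 4 (3.33 and 3.33), the libraries with the highest WT and the lowest 2 hematopoietic sums of the table (4336, 259 and 253 CPM). When the score of these markers was added as a covariate, 0 of the 34 genes passed, as did 0% of all genes tested (1 at an unadjusted p under 0.05, as were 6.18% of all genes), the 9 genes kept their direction, and the 8 lower ones were at -0.86 to -0.40 on the log2 scale. Without AhR-/- libraries 3 and 4, which carry Y-linked reads, 0 passed, as did 0% of all genes tested (9 at an unadjusted p under 0.05, as were 19.9% of all genes), and the lower genes were at -1.51 to -0.63. Leaving out 1 library at a time left 0 to 15 genes past the threshold, with 0 without WT library 3 or 4 or AhR-/- library 1, 3 or 4, 3 without WT library 1 (6.13% of all genes tested), 14 without WT library 2 (22.5%) and 15 without AhR-/- library 2 (29.0%). The part of these cells and libraries in the differences was not tested.

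**Figure D2:**
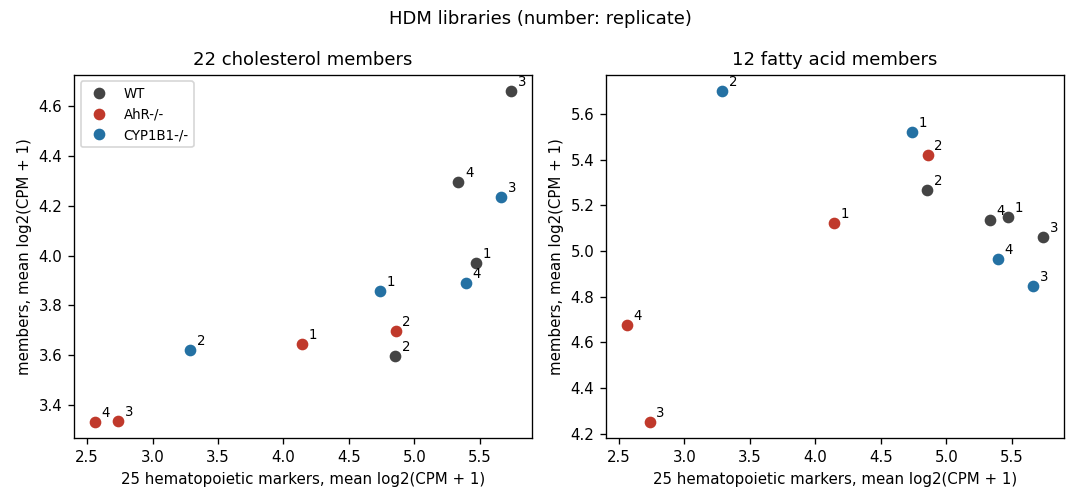
Mean log2(CPM + 1) of the cholesterol branch and of the fatty acid genes against that of 25 hematopoietic markers, 1 point for each of the 12 HDM libraries, coloured by genotype. The cholesterol mean is 3.33 to 3.70 in AhR-/- and 3.60 to 4.66 in WT libraries, and the fatty acid mean spreads most in AhR-/-, from 4.25 to 5.42.

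Further genes of the same pathways were read from the same fit, in which 22.1% of all genes tested passed, 9.22% higher and 12.9% lower. Among 16 other sterol genes, 4 fell and 0 rose in AhR-/- HDM libraries, among them Nfya, a subunit of NF-Y, at -1.27 on the log2 scale (SE 0.31), Lbr, a sterol reductase of the nuclear envelope, at -1.74 (SE 0.43), and Aacs, which activates acetoacetate, at -1.96 (SE 0.55). Of 18 tested genes of sterol uptake, storage and efflux, 3 rose and 2 fell. Abca1, which exports cholesterol, rose by 2.56 (SE 0.70), Osbp, an oxysterol-binding protein, by 1.56 (SE 0.35), and Scarb1, a lipoprotein receptor, fell by 2.50 (SE 0.59). Of 26 other lipogenic genes, 3 rose and 2 fell. The acyltransferases that complete triglycerides parted, with Dgat2 at -3.68 (SE 0.64) and Dgat1 at 0.89 (SE 0.26), G6pdx, a source of NADPH, at -1.47 (SE 0.41) and Hacd3, a dehydratase of chain elongation, at 1.12 (SE 0.36). Of 11 fatty acid oxidation genes, 0 passed in the edgeR test, with 4 at an unadjusted p under 0.05, and of 10 surfactant lipid genes 2 rose, Chpt1 (1.97, SE 0.49) and Sptlc2 (0.76, SE 0.24).

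CYP1B1-/- ECs did not show these differences past the threshold. After HDM, 0 of the 34 genes passed between CYP1B1-/- and WT in the edgeR test (0% of all genes tested), 0 had an unadjusted p under 0.05 (1.65% of all genes), and DESeq2, the likelihood ratio test and voom also called 0. This comparison shares its WT libraries with the preceding one. The median log2 fold change was -0.31 in the cholesterol branch, with 20 of 22 genes fitted below 0, 0.19 in fatty acid synthesis and -0.01 over all genes tested. Cyp51 was at 34.1, 17.4, 75.6 and 56.7 CPM in the CYP1B1-/- libraries (-0.44 against WT, SE 0.49), Idi1 at 6.85, 2.86, 7.98 and 4.80 (-0.39, SE 0.47) and Acly at 130.4, 149, 119.8 and 140.4 (0.087, SE 0.35). All overlapped WT.

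In each group of genes, the pair with the lowest p-values was read. In sensing and transport it held Insig1, at 9.49, 7.61, 13.98 and 10.9 CPM in CYP1B1-/- (-0.71 on the log2 scale, SE 0.37), and Scap, at 13.5, 13.6, 13.6 and 9.46 against 17.8, 11.3, 14.4 and 12.8 in WT (-0.18, SE 0.21). In sterol synthesis, Pmvk was at 12.5, 8.09, 14.6 and 9.80 CPM in CYP1B1-/- and at 16.6, 12.3, 17.8 and 14.1 in WT (-0.43, SE 0.24), and Sc5d, a sterol desaturase, at 24.1, 28.3, 39.7 and 36.8 and 35.3, 35.4, 52.2 and 45.2 (-0.38, SE 0.25). In each of these genes the groups overlapped. Acacb, the carboxylase that makes malonyl-CoA at mitochondria, was at 3.34, 3.81, 0.674 and 0.567 CPM in CYP1B1-/- and at 0.538, 2.04, 0.204 and 1.34 in WT (1.01, SE 0.79), and Elovl1, an elongase of saturated chains, at 168, 229, 76.3 and 121 and 146, 113, 97.7 and 70.7 (0.47, SE 0.37). These differences were within their spread.

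Between AhR-/- and CYP1B1-/- after HDM, 0 of the 34 genes passed in edgeR's quasi-likelihood test (0.00706% of all genes tested), with 13 at an unadjusted p under 0.05 (29.9% of all genes). The likelihood ratio test called 7 of the 34 and 17.4% of all genes tested, DESeq2 9 and 20.5%, and voom 13 and 30.4%. The median log2 fold change was -0.60, and -0.10 over all genes tested. Scd2 was higher in AhR-/- by 1.61 (SE 0.47, adjusted p = 0.0640), at 168, 292, 89.7 and 164 CPM in CYP1B1-/-. Acly was at -1.19 (SE 0.35, adjusted p = 0.0646), with every AhR-/- library below every CYP1B1-/- library. Insig2 was at 17.05, 27.6, 11.1 and 20.5 CPM in CYP1B1-/- (1.15 for AhR-/- minus CYP1B1-/-, SE 0.35, adjusted p = 0.0672) and Srebf2 at 34.4, 22.8, 68.8 and 20.4 (-1.15, SE 0.42, adjusted p = 0.0958). For both, the libraries of the genotypes overlapped. Cyp51 (-1.44, SE 0.50) and Idi1 (-1.42, SE 0.50) had the lowest p-values of sterol synthesis.

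**Figure D3:**
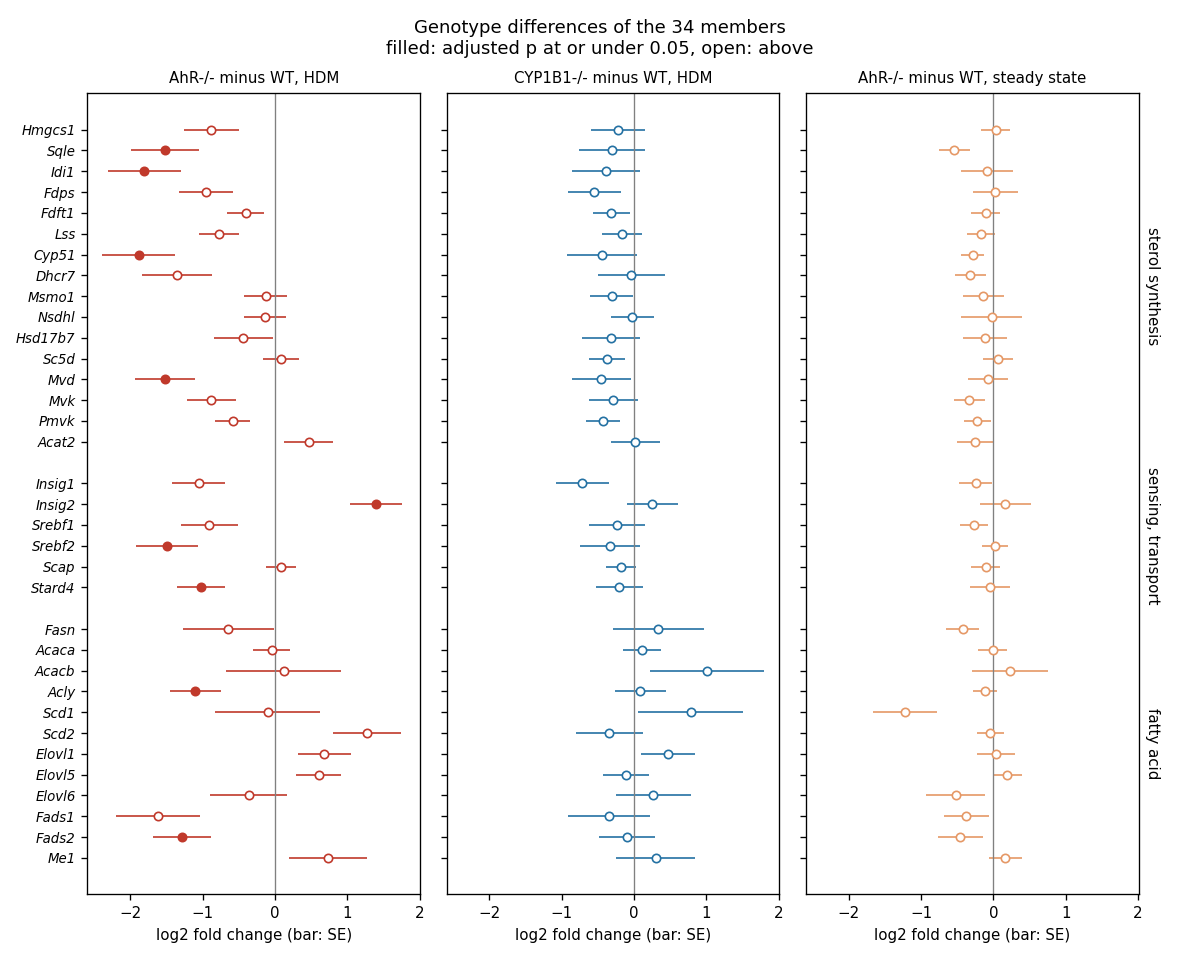
Log2 fold change with its SE of all 34 genes, grouped by branch, for AhR-/- minus WT after HDM, CYP1B1-/- minus WT after HDM and AhR-/- minus WT at steady state. In the first panel 25 of 34 genes lie below 0 and 9 passed the edgeR test, and in the other panels 0 passed.

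At steady state, none of the 34 genes passed between genotypes. Between AhR-/- and WT, 0 of the 34 genes passed in the edgeR test (0% of the 15547 genes tested), 2 had an unadjusted p under 0.05 (1.69% of all genes), and the likelihood ratio test, DESeq2 and voom called 0. The median log2 fold change was -0.11, against -0.01 over all genes tested. Scd1 was at 840.0, 442, 365 and 227 CPM in WT and at 339.6, 153 and 111 in AhR-/-, scaled within the steady-state table (-1.22, SE 0.44). Sqle was at 23.3, 14.1, 20.6 and 26.4 CPM in WT and at 16.5, 14.2 and 12.9 in AhR-/- (-0.54, SE 0.21). The groups overlapped for both genes. Cyp51 was at 37.2, 34.1, 33.7 and 44.2 CPM in WT and at 29.6, 28.5 and 33.6 in AhR-/- (-0.29, SE 0.16), and Srebf1 at 65.2, 67.4, 64.7 and 80.6 and 57.99, 63.5 and 52.3 (-0.26, SE 0.19), both without overlap. Of the 34 genes, 5 were lower in AhR-/- without overlap (Cyp51, Dhcr7, Msmo1, Acat2 and Srebf1), beside 1.89% of all genes tested, and 0 were higher without overlap, beside 2.54%. The gap was thin for Acat2 (12.58 CPM at most in AhR-/- and 12.59 at least in WT) and for Cyp51 (33.6 and 33.7). Fasn was at 48.4, 43.9, 41.1 and 38.7 CPM in WT and at 42.03, 29.4 and 24.8 in AhR-/- (-0.42, SE 0.23), and Insig1 at 35.8, 31.7, 30.7 and 39.7 and 31.6, 26.5 and 29.2 (-0.25, SE 0.22).

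Between CYP1B1-/- and the same WT libraries at steady state, 0 of the 34 genes passed in the edgeR test (0.0129% of all genes tested), 3 had an unadjusted p under 0.05 (5.80% of all genes), and the likelihood ratio test, DESeq2 and voom called 0. The median log2 fold change was -0.23, against -0.05 over all genes tested. CYP1B1-/- library 2 stood apart from libraries 3 and 4 and was the lowest of the 3 for 15 of the 22 genes of the cholesterol branch. Nsdhl, a sterol dehydrogenase on the X chromosome, was at 3.72, 24.01 and 19.5 CPM in CYP1B1-/-, and Insig2 at 20.9, 87.1 and 73.6, while Insig1 (63.9, 31.9 and 38.2 CPM) and Acacb (5.32, 1.001 and 2.01 CPM) were highest in the same library. Summed type 1 alveolar markers were at 30030 CPM in library 2 and at up to 49157 in the others, and summed club cell markers at 532 and at up to 6079. Against WT, Insig1 was at 0.37 (SE 0.22) and Acacb at 0.98 (SE 0.51) on the log2 scale. Dhcr7 was at 4.42, 3.87 and 4.19 CPM in CYP1B1-/- and at 6.61, 5.99, 6.10 and 6.56 in WT (-0.61, SE 0.22), without overlap. Scd1 was at 261, 235 and 193 CPM (-1.03, SE 0.44), Sqle at 17.6, 14.5 and 13.7 (-0.47, SE 0.21) and Stard4 at 2.61, 5.80 and 5.55 in CYP1B1-/- and 5.71, 5.36, 6.50 and 6.74 in WT (-0.37, SE 0.28).

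Between AhR-/- and CYP1B1-/- at steady state, 0 of the 34 genes passed in the edgeR test (0.00643% of all genes tested), 2 had an unadjusted p under 0.05 (4.23% of all genes), and the likelihood ratio test, DESeq2 and voom called 0. Fads2 was at 4.49, 7.64 and 3.77 CPM in AhR-/- and at 10.4, 9.54 and 8.37 in CYP1B1-/- (-0.83, SE 0.32), without overlap. Insig1 had -0.62 (SE 0.24) and Srebf1, at 102, 64.6 and 62.5 CPM in CYP1B1-/-, -0.39 (SE 0.21), and the highest value of both was that of CYP1B1-/- library 2. Acaca was at 9.84, 8.13 and 10.2 CPM in AhR-/- and at 7.33, 7.54 and 6.68 in CYP1B1-/- (0.38, SE 0.22). For Sc5d, at 123, 127 and 148 and 71.5, 130.0 and 130.3 CPM (0.26, SE 0.22), and Dhcr7 (0.29, SE 0.23), the difference was little more than its SE.

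HDM and steady-state libraries were compared within each genotype in a fit over all 22 libraries, and CPM values of these comparisons are scaled over the 22. In WT, sterol enzymes such as Idi1, Mvd, Sqle and Cyp51, the regulator Srebf2 and the fatty acid enzymes Fasn, Fads1 and Fads2 rose after HDM, and Scd2, Elovl5 and Insig2 fell. Of the 34 genes, 13 rose and 5 fell in the same edgeR test, where 38.4% of all 16639 genes tested passed, 19.0% higher and 19.4% lower. In CYP1B1-/-, 13 rose and 6 fell, where 33.4% of all genes passed, 15.5% higher and 17.9% lower. In AhR-/-, 2 rose and 3 fell, where 20.6% passed, 10.6% higher and 10.1% lower. This count moved with the libraries, to between 1 and 9 with 1 library left out, to 15 (12 higher and 3 lower) without HDM libraries 3 and 4, beside 23.6% of all genes, and to 17 without the shallow libraries, beside 28.3%. With 1 library left out, the share of all genes moved as well, as listed at the end. Medians of the 34 genes were 0.51 in WT, 0.69 in CYP1B1-/- and 0.25 in AhR-/- on the log2 scale, against -0.11, -0.02 and -0.05 over all genes tested. Between WT and CYP1B1-/-, 15 genes were called in the same direction (83.3% of the 18 of WT and 78.9% of the 19 of CYP1B1-/-), 11 higher and 4 lower, and between WT and AhR-/- 3 were (16.7% of 18 and 60% of 5). Over all genes tested, calls shared in direction were 74.2% of those of WT and 85.3% of those of CYP1B1-/-, and 38.2% of those of WT and 71.1% of those of AhR-/-. In WT, 10 of the 34 genes were higher and 3 lower without overlap between states, beside 17.7% and 21.2% of all genes tested.

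Among the sterol synthesis genes, Idi1 was at 2.27, 1.85, 1.08 and 1.29 CPM in WT at steady state and at 6.37, 5.33, 18.3 and 10.6 after HDM (log2 fold change 2.64, SE 0.46, adjusted p = 8.99e-05 in the edgeR test). In CYP1B1-/- it was at 0.993, 1.37 and 1.94 CPM and at 7.03, 3.46, 11.9 and 7.44 (2.40, SE 0.51), and in AhR-/- at 1.68, 1.44 and 1.60 and 3.37, 4.12, 3.18 and 0.707 (0.88, SE 0.50, adjusted p = 0.219). Every HDM library was above every steady-state library of its genotype in WT and CYP1B1-/-, whereas AhR-/- library 4 after HDM lay below all of its steady-state libraries. Mvd was at 4.89, 3.09, 3.73 and 5.48 CPM in WT at steady state and at 21.6, 7.10, 35.6 and 21.6 after HDM (2.33, SE 0.41, adjusted p = 1.15e-04), and at 2.34, 5.07 and 3.06 and 11.2, 10.7, 22.8 and 15.8 in CYP1B1-/- (2.12, SE 0.46). In AhR-/- it was at 3.89, 4.48 and 4.12 and 7.09, 12.97, 4.09 and 4.24 (0.82, SE 0.44). The states did not overlap for Mvd in WT or CYP1B1-/- and did in AhR-/-.

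Sqle was at 15.3, 9.57, 14.2 and 20.2 CPM in WT at steady state and at 37.3, 16.5, 80.2 and 65.2 after HDM (1.75, SE 0.43), and at 12.4, 11.00 and 10.02 and 28.7, 19.9, 58.3 and 54.4 in CYP1B1-/- (1.87, SE 0.48). WT HDM library 2 lay within the steady-state range, and the states did not overlap in CYP1B1-/-. Cyp51 was at 24.5, 23.2, 23.2 and 33.8 CPM and 66.1, 28.9, 145 and 103 in WT (1.71, SE 0.45), and at 20.1, 26.6 and 20.8 and 34.99, 21.04, 113 and 87.9 in CYP1B1-/- (1.52, SE 0.49). In AhR-/- it was at 20.5, 20.2 and 24.6 and 28.3, 33.1, 13.2 and 16.96 (0.092, SE 0.48). The states overlapped in all 3 genotypes. Dhcr7 was at 4.36, 4.07, 4.199 and 5.02 CPM and 7.13, 4.06, 15.98 and 11.4 in WT (1.14, SE 0.41), and at 3.12, 2.94 and 3.06 and 5.05, 5.48, 14.9 and 12.1 in CYP1B1-/- (1.66, SE 0.46). Fdps rose in WT, from 2.68, 3.33, 2.57 and 3.27 CPM to 6.50, 4.57, 12.6 and 6.35 (1.34, SE 0.39), and was at 0.94 in CYP1B1-/- and 0.34 in AhR-/-, which did not pass. Pmvk likewise rose in WT, from 9.31, 9.07, 8.94 and 12.98 CPM to 26.3, 13.7, 26.6 and 16.9 (1.05, SE 0.28), where the states did not overlap.

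Other sterol synthesis genes moved differently. Hsd17b7, a ketosteroid reductase of the pathway, fell in all genotypes, from 19.5, 18.02, 22.8 and 31.3 CPM to 7.04, 7.61, 18.3 and 10.7 in WT (-1.07, SE 0.41), from 14.7, 22.3 and 27.4 to 7.31, 4.21, 8.19 and 12.9 in AhR-/- (-1.42, SE 0.44) and from 9.22, 25.7 and 25.04 to 4.15, 5.19, 13.2 and 12.3 in CYP1B1-/- (-1.15, SE 0.44). Sc5d fell in CYP1B1-/-, from 50.5, 98.8 and 95.4 CPM to 24.7, 34.3, 59.3 and 57.05 (-0.89, SE 0.32), and had -0.64 in WT and -0.66 in AhR-/-, which did not pass. Acat2, the thiolase that starts the pathway, rose in AhR-/-, from 7.55, 7.41 and 9.23 CPM to 35.3, 15.97, 14.1 and 9.01 (1.23, SE 0.38, adjusted p = 0.0253 in the edgeR test), with AhR-/- library 1 far above the others and library 4 within the steady-state range. Its fold changes in WT and CYP1B1-/- were 0.55 and 0.87. Hmgcs1, Fdft1, Lss, Msmo1, Nsdhl and Mvk passed in no genotype, with log2 fold changes in WT of 0.47, 0.058, 0.21, 0.35, 0.37 and 0.20.

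In sensing and transport, Srebf2 was at 16.2, 19.6, 18.7 and 28.5 CPM in WT at steady state and at 65.6, 28.7, 90.1 and 69.7 after HDM (1.62, SE 0.39, adjusted p = 0.00205 in the edgeR test), and at 26.02, 21.9 and 20.98 and 35.3, 27.7, 103 and 31.6 in CYP1B1-/- (1.11, SE 0.42). In AhR-/- it was at 18.7, 21.4 and 23.99 and 25.7, 32.98, 12.7 and 17.3 (0.077, SE 0.41), with libraries 3 and 4 below and libraries 1 and 2 above the steady-state range. Stard4 was at 3.76, 3.64, 4.47 and 5.15 CPM and 13.4, 7.36, 21.3 and 14.7 in WT (1.74, SE 0.34), at 1.84, 4.41 and 4.07 and 10.8, 8.65, 17.6 and 10.5 in CYP1B1-/- (1.79, SE 0.38) and at 0.75 in AhR-/-. The states did not overlap in WT or CYP1B1-/-. Scap, the sterol sensor that escorts SREBPs, fell in WT, from 26.9, 31.2, 30.7 and 40.1 CPM to 28.3, 12.7, 21.5 and 15.3 (-0.72, SE 0.25), and in CYP1B1-/-, from 47.4, 35.03 and 28.5 to 13.9, 16.4, 20.3 and 14.6 (-1.18, SE 0.27).

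Insig2 fell in WT, from 42.4, 46.1, 45.8 and 51.2 CPM to 32.9, 21.3, 22.5 and 10.7 (-1.08, SE 0.39), without overlap, and was at 45.9, 47.97 and 65.6 and 61.2, 31.00, 67.8 and 65.4 in AhR-/- (0.080, SE 0.41), where AhR-/- library 2 lay below and the others near the steady-state level. Insig1 fell in CYP1B1-/-, from 45.1, 24.2 and 27.99 CPM to 9.74, 9.22, 20.9 and 16.9 (-1.17, SE 0.37), and was at 21.9, 18.7 and 21.4 and 9.57, 18.3, 7.73 and 8.84 in AhR-/- (-0.87, adjusted p = 0.106 in the edgeR test), lower without overlap. In WT its fold change was -0.027. Srebf1 did not pass in any genotype, with -0.31 in WT, -0.83 in CYP1B1-/- and -0.99 in AhR-/- (adjusted p = 0.0549 in the edgeR test), where it was at 40.2, 44.9 and 38.4 CPM at steady state and at 17.5, 39.9, 10.01 and 14.1 after HDM.

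Among the fatty acid genes, Scd2 had the largest fold change of the 34 genes in WT and CYP1B1-/-. It fell from 2187, 3130.0, 2679 and 3373 CPM to 368, 332, 354 and 169 in WT (-3.22, SE 0.44, adjusted p = 1.12e-05 in the edgeR test), from 2533, 2781 and 3430.3 to 172, 354, 134 and 254.7 in CYP1B1-/- (-3.67, SE 0.46) and from 2482, 3029 and 2909 to 661, 263, 929.9 and 1051 in AhR-/- (-1.95, SE 0.44), without overlap in any genotype. Its neighbour on chromosome 19, Scd1, rose in CYP1B1-/-, from 184, 178 and 141 CPM to 1145, 1869, 384 and 881 (2.67, SE 0.70), and in AhR-/-, from 236, 108 and 81.7 to 1074, 1182, 100.1 and 244 (2.20, SE 0.69). In WT, Scd1 was at 553, 301, 251.3 and 174 and 877, 900.2, 441 and 441 CPM (1.06, SE 0.60), which did not pass. AhR-/- libraries 3 and 4 after HDM lay within or near the steady-state range of Scd1. Elovl5 fell in all genotypes without overlap, from 691, 811, 809 and 968 CPM to 400.5, 281, 271 and 211 in WT (-1.50, SE 0.32), from 807, 914 and 1146 to 337, 274, 522 and 608 in AhR-/- (-1.14, SE 0.33) and from 579.9, 988 and 1003 to 197, 269, 269 and 315 in CYP1B1-/- (-1.71, SE 0.34).

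Fads1 rose from 11.3, 8.70, 7.38 and 8.38 CPM to 39.7, 23.9, 54.3 and 48.4 in WT (2.22, SE 0.51) and from 13.97, 9.73 and 6.95 to 24.3, 17.00, 55.5 and 33.4 in CYP1B1-/- (1.69, SE 0.56). Fads2, which lies beside it on chromosome 19, rose from 6.44, 6.05, 3.93 and 3.73 CPM to 11.03, 10.4, 24.8 and 18.4 in WT (1.68, SE 0.37) and from 7.37, 7.25 and 6.13 to 11.7, 15.9, 16.2 and 15.4 in CYP1B1-/- (1.10, SE 0.40). Neither overlapped between states in those genotypes. Fasn rose from 31.9, 29.9, 28.2 and 29.5 CPM to 120.4, 70.8, 85.4 and 64.8 in WT (1.51, SE 0.49) and from 41.1, 25.9 and 26.5 to 125, 148, 62.3 and 50.1 in CYP1B1-/- (1.62, SE 0.55). In AhR-/- HDM libraries it was at 74.99, 113, 10.01 and 20.3 CPM, with library 3 below and library 4 within the steady-state values of 29.2, 20.7 and 18.2 (1.28, SE 0.54, not past the threshold). Acaca rose from 7.58, 6.54, 6.71 and 5.29 CPM to 10.5, 9.39, 8.67 and 10.9 in WT (0.60, SE 0.23) and from 5.18, 5.73 and 4.89 to 9.74, 11.2, 11.1 and 9.90 in CYP1B1-/- (0.99, SE 0.25). Elovl6, an elongase that acts on palmitate, rose in CYP1B1-/-, from 0.922, 0.659 and 1.002 CPM to 1.44, 1.73, 3.98 and 3.40 (1.66, SE 0.53), where 3 counts correspond to 0.865 CPM in HDM library 2. Acly (0.70 in WT, 0.76 in CYP1B1-/- and -0.30 in AhR-/-), Acacb, Elovl1 and Me1, the malic enzyme, passed in no genotype.

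**Figure D4:**
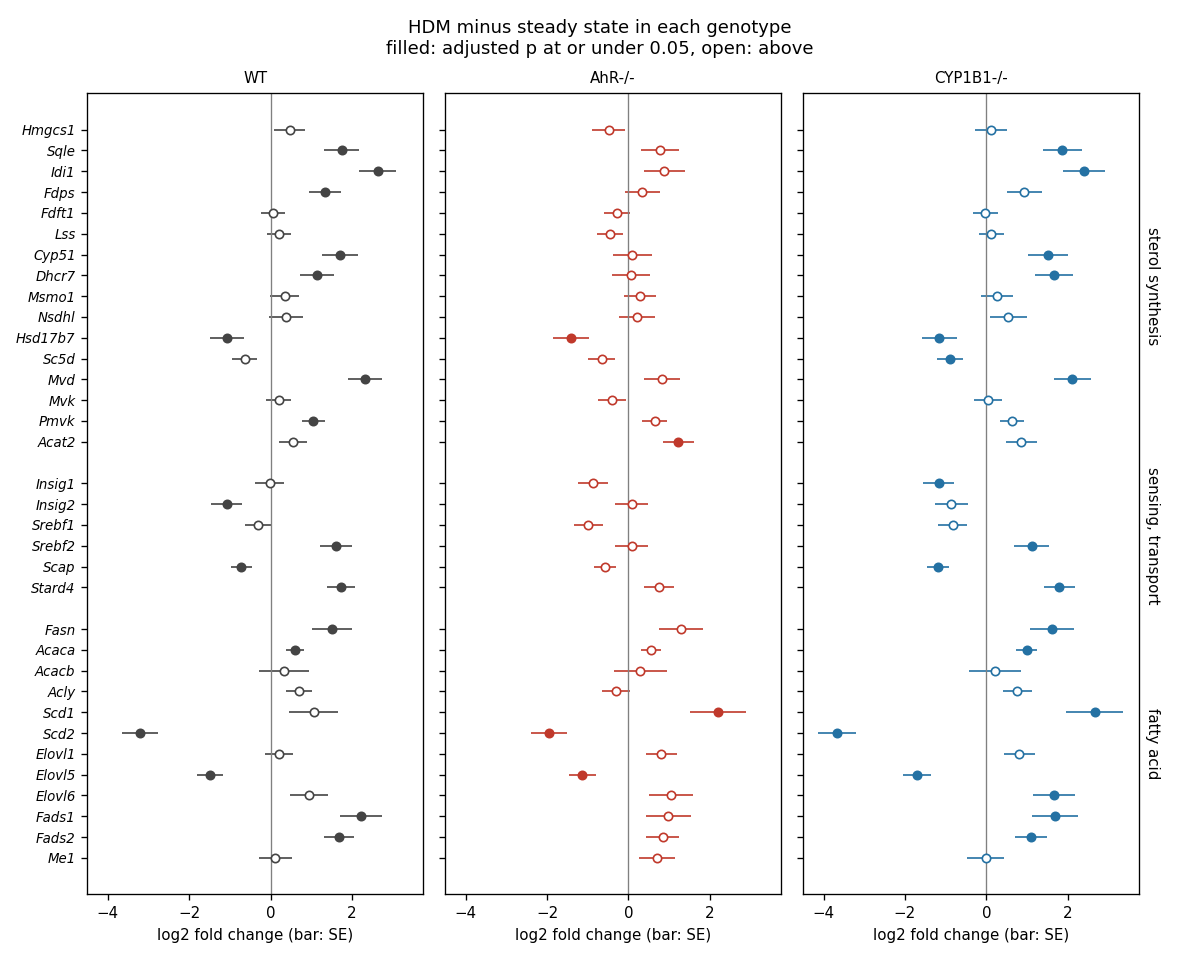
Log2 fold change with its SE for HDM minus steady state of all 34 genes, grouped by branch, in WT, AhR-/- and CYP1B1-/-. Genes of sterol synthesis such as Idi1 and Mvd lie above 2 in WT and CYP1B1-/- and at 0.88 and 0.82 in AhR-/-, and Scd2 lies below 0 in all panels.

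The cell markers moved with state as well. Scaled over all libraries, summed hematopoietic markers were at 294 to 628 CPM in WT at steady state and at 1982 to 6472 after HDM, at 297 to 354 and 464 to 6691 in CYP1B1-/-, and at 325 to 341 and 324 to 1524 in AhR-/-. Summed type 1 alveolar markers were at 28107 to 35324 CPM in WT at steady state and at 945 to 6255 after HDM, at 21204 to 37365 and 661 to 5614 in CYP1B1-/-, and at 30587 to 36548 and 4551 to 25485 in AhR-/-. Summed type 2 markers were at 2532 to 5591 CPM in WT at steady state and at 5093 to 27648 after HDM, at 1001 to 3224 and 6996 to 42784 in CYP1B1-/-, and at 1504 to 5714 and 7966 to 75249 in AhR-/-. Summed epithelial markers were at 1434 to 2228 CPM in WT at steady state and at 526.2 to 920.0 after HDM, at 1868 to 2068 and 606 to 867 in CYP1B1-/-, and at 1639 to 1895 and 831 to 1062 in AhR-/-. The states did not overlap in the epithelial sums of any genotype. Summed mesenchymal markers were at 72.8 to 99.6 and 19.0 to 55.3 CPM in WT, and overlapped between states in both knockouts. Endothelial sums did not overlap in AhR-/- (7.69 to 9.82 and 10.0 to 35.3 CPM) or CYP1B1-/- (10.2 to 16.9 and 17.5 to 28.5) and did in WT, and club and ciliated sums overlapped in every genotype. With the hematopoietic score as a covariate, 0 of the 34 genes passed between states in any genotype (0.0421% of all genes in WT, 0.114% in CYP1B1-/- and 0.709% in AhR-/-), and 17 of the 18 genes of WT kept their direction. At an unadjusted p under 0.05 were 3 of the 34 in WT, 5 in CYP1B1-/- and 3 in AhR-/-, beside 12.2%, 11.0% and 15.2% of all genes. With the type 2 score as a covariate, 0 of the 5 genes of AhR-/- still passed, beside 3.07% of all genes tested, and Scd1 was at -0.27 on the log2 scale. In WT and CYP1B1-/-, Y-linked reads were in every steady-state library and in no HDM library, so they cannot be told apart from state there. The part of these cells in the state differences was not tested, nor was that of Y-linked reads in AhR-/-.

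Whether the state difference depends on genotype was tested by the interaction. For AhR-/-, 0 of the 34 genes passed in the edgeR test (0% of all genes tested), and 6 had an unadjusted p under 0.05 (18.3% of all genes). DESeq2 called 1 of the 34 and 7.43% of all genes tested, the likelihood ratio test 0 and 1.33%, and voom 19 and 30.3%. The lowest p was that of Srebf2, at -1.54 on the log2 scale (SE 0.56, adjusted p = 0.167). Idi1 had -1.75 (SE 0.66), Mvd -1.50 (SE 0.59), Insig2 1.16 (SE 0.56), Scd2 1.27 (SE 0.60) and Acly -1.002 (SE 0.47). The cholesterol branch had a median of -0.67, with 19 of 22 genes below 0, against 0.02 over all genes tested. For CYP1B1-/-, 0 of the 34 passed in the edgeR test (0% of all genes tested), 1 had an unadjusted p under 0.05 (2.30% of all genes), and DESeq2, the likelihood ratio test and voom called 0. Insig1 was at -1.14 (SE 0.51), Scap at -0.46 (SE 0.37), Scd1 at 1.62 (SE 0.88), Elovl1 at 0.61 (SE 0.52), Pmvk at -0.43 (SE 0.40) and Dhcr7 at 0.53 (SE 0.61).

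Further genes of the pathways were read from the same fit, in which 38.4% of all genes passed between states in WT, 20.6% in AhR-/- and 33.4% in CYP1B1-/-. In WT, 3 of 16 other sterol genes rose and 3 fell, among them Nfya (2.50, SE 0.35) upward and Mbtps2, a protease that cleaves SREBPs (-1.58, SE 0.25), and Ggps1, which makes geranylgeranyl diphosphate (-1.40, SE 0.35), downward. In AhR-/-, 2 rose and 2 fell, with Nfya at 1.18 (SE 0.38). In CYP1B1-/-, 2 rose and 3 fell, with Nfya at 1.67 (SE 0.38). Of 19 genes of uptake, storage and efflux, 3 rose and 7 fell in WT, 3 and 3 in AhR-/- and 2 and 6 in CYP1B1-/-. Scarb1 was at 3.60 (SE 0.66) and Abca1 at -3.21 (SE 0.56) in WT. Of 30 tested lipogenic genes, 4 rose and 5 fell in WT, 1 and 0 in AhR-/- and 3 and 6 in CYP1B1-/-, and Dgat2 rose by 4.83 (SE 0.62) in WT and by 4.38 (SE 0.70) in CYP1B1-/-. Fatty acid oxidation had 1 of 12 genes higher and 3 lower in WT, 0 and 1 in AhR-/- and 0 and 3 in CYP1B1-/-. Of 10 surfactant lipid genes, 3 rose and 3 fell in WT, 2 and 1 in AhR-/- and 3 and 3 in CYP1B1-/-. Fabp5, a fatty acid carrier, rose by 5.53 (SE 0.91) in WT, 4.83 (SE 1.01) in AhR-/- and 6.30 (SE 1.08) in CYP1B1-/-.

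In some groups, 1 library was highest or lowest for most genes of a branch. After HDM, WT library 3 had the highest CPM of its group for 19 of the 22 genes of the cholesterol branch and WT library 2 the lowest for 17. CYP1B1-/- library 3 was highest for 16 of the 22. For the 12 fatty acid genes, CYP1B1-/- library 2 was highest for 9 and AhR-/- library 2 for 8, while AhR-/- library 3 was lowest for 7. At steady state, WT library 4 was highest for 13 of the 22 genes and WT library 1 for 7 of the 12 fatty acid genes, and CYP1B1-/- library 2 was lowest for 15 of the 22. The genes were spread more evenly elsewhere. Each WT HDM library was highest for 2 to 4 of the 12 fatty acid genes, and AhR-/- steady-state libraries 1, 3 and 4 were highest for 9, 4 and 9 of the 22 genes and lowest for 9, 6 and 7. The mean log2(CPM + 1) of the cholesterol branch after HDM, on the scale of the HDM table, was 4.13 ± 0.45 (SD, n = 4) in WT, 3.50 ± 0.20 (SD, n = 4) in AhR-/- and 3.90 ± 0.25 (SD, n = 4) in CYP1B1-/-, and that of fatty acid synthesis 5.15 ± 0.09 (SD, n = 4), 4.87 ± 0.51 (SD, n = 4) and 5.26 ± 0.41 (SD, n = 4). The steady-state values are on the separate scale of the steady-state table. There the cholesterol branch was at 4.56 ± 0.10 (SD, n = 4), 4.43 ± 0.03 (SD, n = 3) and 4.32 ± 0.32 (SD, n = 3). The spread of this branch between libraries was wider after HDM in WT and AhR-/-. The wide spread of CYP1B1-/- at steady state comes with its library 2, whose cholesterol mean was 3.96. Levels on these separate scales cannot be compared between states. Scaled over the 22 libraries, the cholesterol mean was 4.08 ± 0.17 (SD) at steady state and 4.52 ± 0.60 after HDM in WT. It was 3.98 ± 0.06 and 3.88 ± 0.26 in AhR-/-, and 3.91 ± 0.35 and 4.26 ± 0.45 in CYP1B1-/-.

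**Figure D5:**
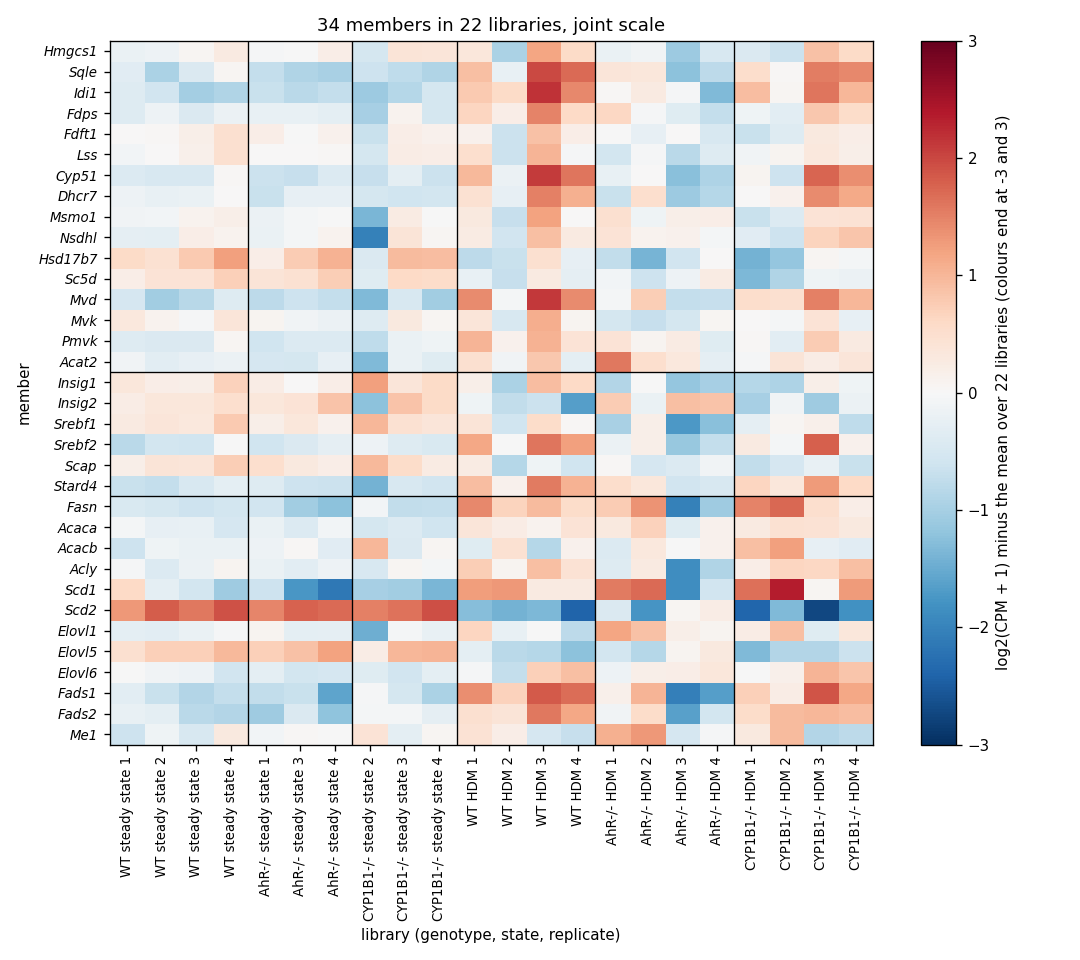
Log2 level of each of the 34 genes in each of the 22 libraries minus the mean of the gene over the 22, scaled over all libraries, with colours ending at -3 and 3. Idi1, Mvd, Sqle, Cyp51 and Srebf2 are high in most WT and CYP1B1-/- HDM libraries and Scd2 and Elovl5 are low, while AhR-/- HDM libraries 3 and 4 stay nearer the steady-state libraries for many genes.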

How the data were processed

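RNA of sorted lung ECs was measured in 22 libraries, 10 at steady state and 12 after HDM, each state in 1 table. The deposited values are raw read counts per gene: per the study's methods and the submitters' processing notes, oligo-dT primed cDNA was tagmented and sequenced, reads were trimmed with bbduk, aligned to mm10 with GSNAP and counted by the authors with featureCounts 2.0.0 on Ensembl release 99. Strand and multi-mapping settings are not given in the sources used here.

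Columns were matched to samples by name and groups taken from the labels. Of 54373 identifiers, 54147 matched GENCODE M21, and 21793 are protein-coding. These were fitted with edgeR 4.0.16 (R 4.3.3) after filterByExpr (minimum count 10, minimum total 15), TMM scaling and robust quasi-likelihood estimation, with all genotypes of a table in 1 fit and all 22 libraries in 1 fit for state and interaction. P-values were adjusted over all genes tested (threshold 0.05), and the SE of a log2 fold change is its size over the square root of F. The replicates share no stated origin, so p-values measure the spread between these libraries. Levels are CPM on TMM-scaled library sizes, within a state's table for genotypes and over the 22 for states.

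The 34 genes and all other lists were chosen with earlier results of these data known. Values in every sample are given for each gene of the list past the threshold in any comparison and, where none passed, for the pair of lowest unadjusted p, and genes outside the list are named only past the threshold. Some of these are not reported here. Alternatives were the edgeR likelihood ratio test, DESeq2 1.42.0, limma 3.58.1 voom with sample weights, other scalings and filters, a replicate block, marker scores as covariates and leaving out libraries. The scripts were tested on simulated data. Promoter sequences are of RefSeq (GRCm38.p6).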

Additional observations from a re-analysis of the deposited data

Results flagged for a closer look

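In 4 of 136 groups of 4 libraries, 1 library stood far from the others of its group for a gene of the list, where chance alone at 1 in 20 gives 6.8 such groups. In AhR-/- library 2 after HDM, Dhcr7 was at 5.56 CPM and the other libraries of the group at 1.46 to 1.88, and Insig1 was at 13.6 CPM and the others at 6.18 to 6.63. In CYP1B1-/- library 4 after HDM, Srebf1 was at 13.3 CPM and the others at 26.4 to 30.2, and Scap was at 9.46 CPM and the others at 13.5 to 13.6.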

How the results depend on the processing

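Counts of the 34 genes past the threshold depended on the method, the covariates and the libraries, and the causes were not tested. The share of all genes tested that passed under the same setting stands in parentheses. Between AhR-/- and WT after HDM, 9 genes passed in the edgeR quasi-likelihood test (22.1%), 14 in the likelihood ratio test (29.1%), 21 with voom (47.1%), 4 with no filter on low counts (8.41%) and 0 with the hematopoietic score as covariate (0%). With choices made after seeing the data, 2 passed without the 5 shallow libraries (12.3%) and 0 without the HDM libraries with Y-linked reads (0%). Leaving out 1 library at a time gave 0 to 15. Between AhR-/- and CYP1B1-/- after HDM, 0 passed in the quasi-likelihood test, 7 in the likelihood ratio test (17.4%), 9 with DESeq2 (20.5%), 13 with voom (30.4%) and 2 without the shallow libraries (8.42%), and 0 to 8 with 1 library left out, 8 without AhR-/- replicate 2 (18.8%) and 5 without CYP1B1-/- replicate 2 (20.7%).

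Between states, the 18 genes of WT (38.4%) became 0 with the hematopoietic score (0.0421%) and 13 to 18 with 1 library left out. The 19 of CYP1B1-/- (33.4%) became 0 with the hematopoietic score (0.114%), 11 with the type 2 alveolar score (18.9%) and 12 to 21 with 1 library left out, 12 without steady-state replicate 4 (26.5%). The 5 of AhR-/- (20.6%) became 8 with DESeq2 (27.5%), with voom (28.3%) and with at least 10 counts in every library (33.6%), 0 with the hematopoietic (0.709%) or the type 2 score (3.07%), 3 with only the groups compared in the fit (20.3%), 17 without the shallow libraries (28.3%), 15 without the HDM libraries with Y-linked reads (23.6%) and 4 with Y-linked libraries only (13.6%). With 1 library left out they were 1 to 9, with 1 without steady-state replicate 3 (9.98%) or 4 (8.93%) or HDM replicate 1 (12.6%), 8 without HDM replicate 3 (21.1%) and 9 without HDM replicate 4 (23.7%). The AhR-/- interaction had 0 in the quasi-likelihood test (0%), 1 with DESeq2 (7.43%), 19 with voom (30.3%), 1 with only the groups compared (6.20%), and 0 to 3 with 1 library left out, 3 without AhR-/- HDM replicate 2 (6.14%).

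Signs were followed for genes past the threshold in a comparison, and for the pair of lowest p in a gene group with none. Their fold changes turned sign in 9 cases. Between CYP1B1-/- and WT after HDM, Acacb was at -0.11 and Elovl1 at -0.036 without the shallow libraries. Between states with the hematopoietic score, Fads1 was at -0.011 in WT and at -0.69 in CYP1B1-/-, and Fads2 at -0.11 in CYP1B1-/-. With the type 2 score, Scd1 was at -0.27 in AhR-/- and at -0.36 in CYP1B1-/-, Fasn at -0.70 and Hsd17b7 at 0.049 in CYP1B1-/-. Of the other alternatives for the genes followed, 1902 kept direction and side of the threshold, 45 passed it newly and the rest no longer did.

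Not every same-numbered pair deviated together (correlations of -0.47 to 0.67 after HDM and -0.02 to 0.24 at steady state), so the numbers were not taken to pair the samples. With a replicate block, 0 genes passed between AhR-/- and WT after HDM (0.00706% of all genes, and 21 of the 34 at an unadjusted p under 0.05 in the edgeR test, beside 37.9% of all genes), 19 between states in WT (38.5%), 6 in AhR-/- (18.7%) and 18 in CYP1B1-/- (32.6%), and the other comparisons stayed at 0. Upper-quartile scaling shifted the median of all genes between AhR-/- and WT after HDM to 0.15 on the log2 scale. Depth limits genes such as Acacb and Elovl6, since 3 counts stand for up to 1.09 CPM on the scale of the HDM table and 1.36 CPM on that of all libraries, in the shallowest HDM library.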
